A study of Homo sapiens with 9 samples.

Results

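The genes described here are 9 of the human myosin heavy chain genes: MYH13, MYH8, MYH4, MYH1, MYH2 and MYH3, which lie side by side on chromosome 17 and encode skeletal muscle myosins, and MYH9, MYH10 and MYH14, which encode the nonmuscle myosins of most other cells. They are 9 of the 25886 gene symbols in the count table. The family was chosen on a measured value, the high level of MYH13 in DNMT1 knockdown cells, and the rows were then taken by symbol. The counts of MYH13 and of its 4 near-silent neighbours MYH8, MYH4, MYH1 and MYH2 are therefore given as a description, without a test. MYH3 and the 3 nonmuscle genes were tested in a fit over the whole table, with that choice already made.

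RNA came from HT29, an established human colorectal adenocarcinoma line. There were 3 libraries each of DNMT1 knockdown cells, DNMT3B knockdown cells and Control cells, all made in HT29, all selected with puromycin and otherwise untreated. The knockdowns were stable, made with lentiviruses and short hairpins, and the target left over was substantial: DNMT1 mRNA in DNMT1 knockdown cells stood at 55% of Control, and DNMT3B mRNA in DNMT3B knockdown cells at 49.9% of Control. The column names of the count table mark the Control cells as carrying a control hairpin, whose target is not given in the sources used here, nor is the number of hairpins or clones behind each group. DNMT1 copies DNA methylation to new strands at replication, and DNMT3B adds methylation to unmarked DNA. The knockdowns address what lowered DNMT1 or DNMT3B does to the transcriptome.

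A class II myosin is built from a pair of heavy chains, each with a motor head that pulls on actin and a coiled tail that assembles into filaments, together with essential and regulatory light chains. In skeletal muscle the heavy chain isoform sets how fast a fibre contracts, and the genes of the chromosome 17 cluster are switched on in turn during development and by fibre type: MYH3 in embryonic muscle, MYH8 around birth, MYH2, MYH1 and MYH4 in fast adult fibres, and MYH13 in the very fast muscles of the eye and larynx. In epithelial cells such as those of the colon, the nonmuscle chains drive cell adhesion, migration and division, with MYH9 encoding the chain of nonmuscle myosin IIA, MYH10 that of IIB and MYH14 that of IIC. The skeletal genes are normally not used in epithelium.

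Libraries held 23.4 to 24.2 M counts (M is 1e6) in DNMT1 knockdown, 18.8 to 26 M in DNMT3B knockdown and 26.9 to 33.7 M in Control. No label ties a replicate to a culture of its own, so every p-value is relative to the spread of libraries within a group, and that spread may be technical. Of 10 colon epithelial markers, EPCAM, CDH1, KRT8, KRT18, KRT19 and CDX2 were well expressed, KRT20, VIL1 and LGALS4 were at or below 2.02 CPM (counts per 1e6 counts of the TMM-scaled library size) in every group mean, and CDX1 had 1 count in all 9 libraries. Their summed level was 2527 to 2655 CPM in DNMT1 knockdown, 2552 to 2792 CPM in DNMT3B knockdown and 2411 to 2518 CPM in Control libraries. Summed markers of leukocytes did not pass 1.51 CPM, and those of endothelium did not pass 4.79 CPM. The 10 markers of smooth muscle and stroma summed to 40.2 to 45.7 CPM in DNMT1 knockdown, 48.6 to 52 CPM in DNMT3B knockdown and 37.3 to 42.6 CPM in Control libraries. Most of this was COL1A1 (mean 21.5 CPM in DNMT1 knockdown, 27.5 CPM in DNMT3B knockdown and 17.6 CPM in Control), MYH11, ACTA2 and TAGLN, while COL1A2 and DCN were at 0 in every library. The part of such cells in the results was not tested.

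The 6 skeletal genes are all read from the minus strand of chromosome 17 and span 378 kb (RefSeq, GRCh38.p14), in the order MYH13, MYH8, MYH4, MYH1, MYH2 and MYH3. MYH13 lies at chr17:10300865-10373006, MYH8 at chr17:10390322-10421950, MYH4 at chr17:10443263-10469559, MYH1 at chr17:10492307-10518542, MYH2 at chr17:10521148-10549658 and MYH3 at chr17:10628532-10678417. The gaps between neighbours are 17.3 kb (MYH13 to MYH8), 21.3 kb (MYH8 to MYH4), 22.7 kb (MYH4 to MYH1), 2.61 kb (MYH1 to MYH2) and 78.9 kb (MYH2 to MYH3). Of the nonmuscle genes, MYH10 is on the same arm (chr17:8474212-8630725, 1.67 Mb from MYH13), MYH9 is at chr22:36281280-36387967 and MYH14 is at chr19:50203622-50310540.

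The sequence before each start shows how the 2 classes differ in CG dinucleotides, the sites that DNMT1 and DNMT3B methylate. The 250 bases before the RefSeq start were at hand for 8 of the 9 members, and MYH3 had no entry. MYH13, the skeletal gene with the highest level in DNMT1 knockdown cells among the near-silent ones, and MYH9, the most abundant nonmuscle gene, are shown from 5′ to 3′ with every CG in capitals (MYH13 at chr17:10373007-10373256, MYH9 at chr22:36387968-36388217, both minus strand).
MYH13: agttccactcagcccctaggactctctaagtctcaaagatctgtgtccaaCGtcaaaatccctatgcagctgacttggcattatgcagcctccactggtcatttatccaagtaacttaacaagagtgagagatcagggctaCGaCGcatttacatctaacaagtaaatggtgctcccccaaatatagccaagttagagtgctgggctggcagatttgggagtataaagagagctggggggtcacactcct
MYH9: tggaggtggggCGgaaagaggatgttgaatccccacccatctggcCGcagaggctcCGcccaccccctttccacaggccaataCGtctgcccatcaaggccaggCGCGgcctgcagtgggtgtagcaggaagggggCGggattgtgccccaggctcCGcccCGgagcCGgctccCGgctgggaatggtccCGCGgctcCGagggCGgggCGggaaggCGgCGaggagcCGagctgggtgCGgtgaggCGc

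MYH13 has 3 CG dinucleotides in this window, MYH1 and MYH2 have 2 each, and MYH8 and MYH4 have 1 each. MYH9 has 21, MYH10 has 16 and MYH14 has 27. Over all 27305 RefSeq promoters the median was 11, so the skeletal genes stood below it and the nonmuscle genes above it. Of all promoters, 30.1% had as few CG dinucleotides as MYH13 or fewer, against 72.4% for MYH9. No methylation was measured in these files, so nothing follows from the letters about which sites carried it.

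**Figure D1:**
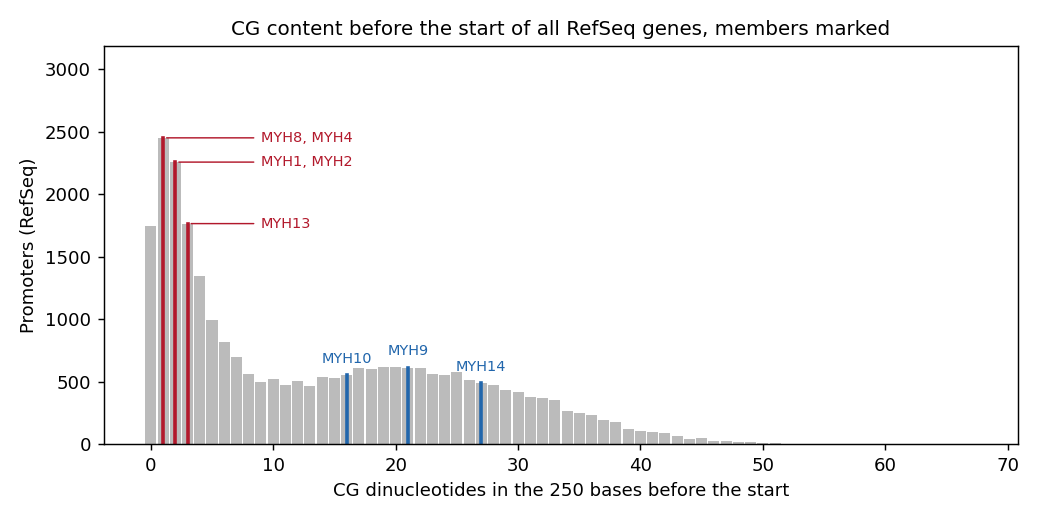
Number of RefSeq promoters (vertical axis, count) by the number of CG dinucleotides in the 250 bases before the start (horizontal axis), with the 5 skeletal members found (red) and the 3 nonmuscle members (blue) marked. The skeletal genes have 1 to 3 CG dinucleotides and the nonmuscle genes 16 to 27, on either side of the median of 11.

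A stretch of 15 bases is shared by MYH8, MYH4, MYH1 and MYH2 at almost the same distance from the start. It is shown because these 4 neighbours also have similar counts, and any link between stretch and counts was not tested. The stretch was found as the longest run common to the 4 windows. It begins 144 bases before the start of MYH8, 158 before MYH4, 159 before MYH1 and 166 before MYH2. Each line gives 105 bases from 5′ to 3′, minus strand, with the shared run in capitals (MYH8 at chr17:10422035-10422139, MYH4 at chr17:10469658-10469762, MYH1 at chr17:10518642-10518746, MYH2 at chr17:10549765-10549869).
MYH8: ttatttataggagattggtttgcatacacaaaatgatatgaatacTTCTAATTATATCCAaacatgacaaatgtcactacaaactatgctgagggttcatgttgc
MYH4: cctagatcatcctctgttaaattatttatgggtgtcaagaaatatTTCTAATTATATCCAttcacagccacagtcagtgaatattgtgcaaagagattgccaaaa
MYH1: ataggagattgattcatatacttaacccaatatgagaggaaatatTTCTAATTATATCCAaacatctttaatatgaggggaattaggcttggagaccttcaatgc
MYH2: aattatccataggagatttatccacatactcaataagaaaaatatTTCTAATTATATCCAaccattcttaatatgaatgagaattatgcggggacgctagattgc

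Searched on both strands of all 27305 windows, TTCTAATTATATCCA was found in 4 (0.0146%), those same 4 genes. It is not in the windows of MYH13, MYH9, MYH10 or MYH14. Its presence in the 4 was fixed by how it was found. A run this long would seldom recur in any case, so nothing is read from its absence elsewhere. TATAAA, the letters of a TATA box, was found in MYH13, MYH8, MYH4, MYH1 and MYH2 and in no nonmuscle member, against 11.1% of all windows. CANNTG, the E-box letters read by myogenic factors among many others, was found in 62.2% of all windows and in 6 members: MYH13, MYH8, MYH4, MYH2, MYH9 and MYH10. CCAAT was found in 33% of windows and in MYH8, MYH1, MYH9, MYH10 and MYH14. The shared run holds none of the other 3 motifs, and a match is only a match of letters.

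MYH13 was nearly silent in Control cells and clearly counted in DNMT1 knockdown cells. It had 75, 101 and 94 counts in the DNMT1 knockdown libraries, 10, 4 and 7 in the DNMT3B knockdown libraries, and 3, 1 and 2 in the Control libraries. The 3 groups did not overlap per library size, with the DNMT1 knockdown libraries far above the others and the DNMT3B knockdown libraries in between. The mean level was 3.77 ± 0.616 CPM in DNMT1 knockdown, 0.298 ± 0.1 CPM in DNMT3B knockdown and 0.0636 ± 0.0261 CPM in Control (SD, n = 3 each). Per library size, the summed counts were 57.4 times as high in DNMT1 knockdown as in Control (exact 95% interval 26 to 158) and 4.64 times as high in DNMT3B knockdown as in Control (1.81 to 14). Such intervals cover counting error only. DNMT1 knockdown stood 12.4 times above DNMT3B knockdown (7.94 to 20.3). In bulk RNA, more cells that express a gene and more RNA per cell cannot be told apart.

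MYH8, MYH4, MYH1 and MYH2 had the same order of groups at lower levels. MYH4, a fast fibre heavy chain, had 22, 16 and 22 counts in DNMT1 knockdown, 3, 2 and 5 in DNMT3B knockdown, and 1, 1 and 0 in Control. Its ratio of DNMT1 knockdown to Control was 38.3 (10.1 to 323) and that of DNMT3B knockdown to Control 6.62 (1.41 to 62.2). All DNMT1 knockdown libraries lay above all others, and the DNMT3B knockdown libraries lay above the Control libraries per library size. Without Control replicate 3 its log2 ratios were 4.66 for DNMT1 knockdown and 2.13 for DNMT3B knockdown, against 5.26 and 2.73 with all libraries.

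MYH2, the heavy chain of fast oxidative fibres, had 17, 12 and 18 counts in DNMT1 knockdown, 2, 4 and 2 in DNMT3B knockdown, and 0 in each Control library. With 0 counts in a Control library the level may still have been up to 0.0895 to 0.112 CPM, the worth of 3 counts. With the knockdown counts taken as they are, and against a floor of 3 counts over the Control group, MYH2 was at least 20-fold higher in DNMT1 knockdown. On the same terms it was at least 3.53-fold higher in DNMT3B knockdown. Unlike the intervals of the other genes, these bounds leave out the counting error of the knockdown counts. Every knockdown library therefore had counts where no Control library had any. With a Control library left out the floor covers less depth, and the log2 bound for DNMT1 knockdown, 4.32 with all libraries, became 3.66 without replicate 1, 3.82 without replicate 2 and 3.72 without replicate 3. For DNMT3B knockdown it was 1.16 without Control replicate 1 and 1.22 without Control replicate 3, against 1.82.

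MYH8, the perinatal heavy chain, had 18, 15 and 14 counts in DNMT1 knockdown, 4, 3 and 2 in DNMT3B knockdown, and 1, 3 and 1 in Control. Its ratio to Control was 12 in DNMT1 knockdown (4.79 to 38.6) and 2.38 in DNMT3B knockdown (0.717 to 9.05). The DNMT3B knockdown and Control libraries overlapped, and the counting interval of their ratio spans 1. Control replicate 2 held 3 of the 5 Control counts, and without it the log2 ratios were 4.40 for DNMT1 knockdown and 2.07 for DNMT3B knockdown, against 3.58 and 1.25.

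MYH1, another fast fibre heavy chain and the lowest in DNMT1 knockdown cells, had 15, 18 and 7 counts in DNMT1 knockdown, 0, 3 and 3 in DNMT3B knockdown, and 2, 1 and 0 in Control. Its ratio to Control was 17 in DNMT1 knockdown (5.42 to 85.9) and 2.65 in DNMT3B knockdown (0.566 to 16.4). DNMT1 knockdown libraries again lay above all others, while DNMT3B knockdown and Control libraries overlapped. The log2 ratio for DNMT1 knockdown, 4.09 with all libraries, was 5.02 without Control replicate 1 and 3.49 without Control replicate 3. For DNMT3B knockdown, 1.41 with all libraries, it was 2.03 without DNMT3B knockdown replicate 1, 2.33 without Control replicate 1 and 0.81 without Control replicate 3.

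In all 5 near-silent genes the DNMT1 knockdown libraries did not overlap the Control libraries, and in 3 of them (MYH13, MYH4 and MYH2) neither did the DNMT3B knockdown libraries. For MYH2, DNMT3B knockdown replicates 1 and 3 (0.0818 and 0.0766 CPM) lay below what a Control library with 0 counts may have held (0.0895 to 0.112 CPM). Of the 16660 tested genes, 24.8% had every DNMT1 knockdown library above every Control library, and 26.6% every DNMT3B knockdown library. By edgeR, 41.8% of the tested genes were called in DNMT1 knockdown against Control, 21% higher and 20.8% lower, and 47.7% in DNMT3B knockdown against Control, 23.1% higher and 24.6% lower. MYH13, MYH8, MYH4 and MYH2 passed the low-count filter only through their DNMT1 knockdown libraries and MYH1 did not pass it, so their side of that background is fixed by the choice of genes and nothing is read from it. Summed, the 5 genes had 464 counts in DNMT1 knockdown, 54 in DNMT3B knockdown and 16 in Control.

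MYH13 supplied 58.2% of those counts in DNMT1 knockdown (270 of 464, exact 95% interval 53.6 to 62.7%). It supplied 38.9% in DNMT3B knockdown (25.9 to 53.1%) and 37.5% in Control (15.2 to 64.6%). These intervals pool the libraries and cover counting error only. Per library the share was 58 ± 6.11% in DNMT1 knockdown, 38.2 ± 13.9% in DNMT3B knockdown and 42.1 ± 25% in Control (SD, n = 3 each). The other 4 were close to each other in DNMT1 knockdown, at 8.62% for MYH1, 10.1% each for MYH8 and MYH2 and 12.9% for MYH4. Without MYH13, the 4 remaining genes together had 194 counts in DNMT1 knockdown, 33 in DNMT3B knockdown and 10 in Control. Their summed ratio to Control was 24.7 in DNMT1 knockdown (13.2 to 52.4) and 4.37 in DNMT3B knockdown (2.1 to 9.94), which like the counts of the single genes is a description.

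**Figure D2:**
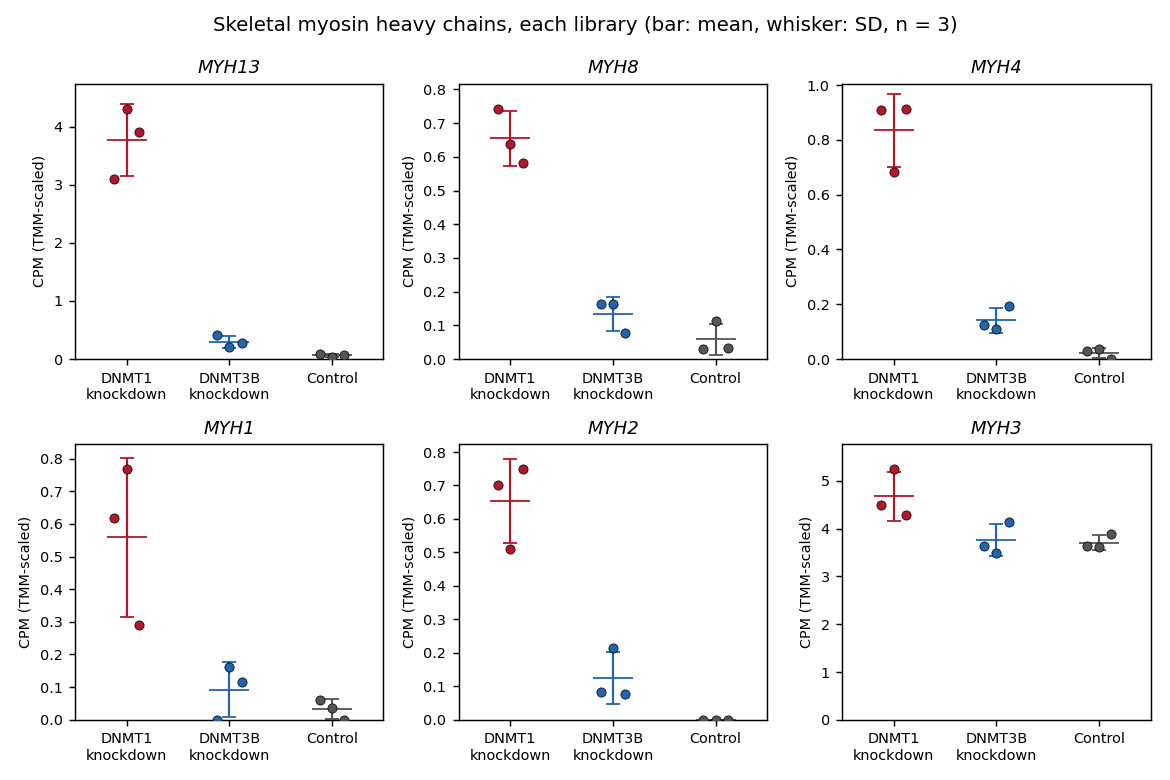
Level of each skeletal heavy chain gene in every library (vertical axis, CPM on a scale of its own per gene) in DNMT1 knockdown, DNMT3B knockdown and Control cells; points are libraries, the bar is the mean and the whisker the SD (n = 3). MYH13, MYH8, MYH4, MYH1 and MYH2 are near 0 in Control and highest in DNMT1 knockdown, whereas MYH3 is between 3.5 and 5.24 CPM in all 9 libraries.

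MYH3, the embryonic heavy chain, stood apart from its neighbours because Control cells already expressed it. It had 109, 123 and 103 counts in DNMT1 knockdown, 89, 65 and 108 in DNMT3B knockdown, and 122, 97 and 121 in Control. Scaled, it was at 4.5, 5.24 and 4.28 CPM in DNMT1 knockdown, 3.64, 3.5 and 4.14 CPM in DNMT3B knockdown, and 3.64, 3.61 and 3.88 CPM in Control. The DNMT1 knockdown libraries lay above all others, and the DNMT3B knockdown and Control libraries overlapped. Of the tested genes, 24.8% had every DNMT1 knockdown library above every Control library. MYH3 rose slightly in DNMT1 knockdown against Control, to 4.67 ± 0.505 CPM against 3.71 ± 0.15 CPM (SD, n = 3 each; log2 fold change 0.33 ± 0.11, SE; edgeR adjusted p = 0.0191). In DNMT3B knockdown it was at 3.76 ± 0.334 CPM (log2 fold change 0.03 ± 0.12 against Control, adjusted p = 0.867). DNMT1 knockdown was also above DNMT3B knockdown (0.30 ± 0.12, adjusted p = 0.0401).

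The call of MYH3 in DNMT1 knockdown against Control did not hold in DESeq2 (adjusted p = 0.085), without Control replicate 1 (0.32, adjusted p = 0.0549) or without DNMT1 knockdown replicate 2 (0.24, adjusted p = 0.132). The call against DNMT3B knockdown was lost in DESeq2 (adjusted p = 0.129), in a fit of those 2 groups alone (adjusted p = 0.052), and without DNMT1 knockdown replicate 2 (0.21, adjusted p = 0.208), DNMT3B knockdown replicate 1 (0.27, adjusted p = 0.115) or DNMT3B knockdown replicate 2 (0.26, adjusted p = 0.114). In the RefSeq annotation the span of MYH3 also overlaps that of SCO1 on the same strand by 5.94 kb, so some of its reads may be shared. MYH3 made up 41.9 ± 1.73% of all counts in the cluster in DNMT1 knockdown, 82.6 ± 2.4% in DNMT3B knockdown and 95.4 ± 1.86% in Control.

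The skeletal genes resemble each other in sequence, which limits how exactly reads can be divided between them. Aligned in full (GENCODE release 29, the transcript with the longest coding part), pairs within the cluster were 76.7 to 90.2% identical, with MYH1 and MYH2 the closest pair and MYH13 76.7 to 78% identical to the others. Of the runs of 100 bases in a transcript, at most 4.95% were shared exactly by another skeletal gene, and at most 2.09% for MYH13. Of runs of 50 bases, at most 14.1% were shared, and at most 4.22% for MYH13. No run of either length was shared between a skeletal and a nonmuscle gene, or among the nonmuscle genes, whose transcripts were 64.1 to 69.4% identical. How the authors treated reads with several matches is not given in the sources used here, so the division among MYH8, MYH4, MYH1 and MYH2 is uncertain.

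An antisense RNA of the cluster, MYHAS, is read from the plus strand across MYH8, MYH4, MYH1 and MYH2 (chr17:10383132-10625540) and does not reach MYH13. It had 10, 5 and 9 counts in DNMT1 knockdown, 2, 0 and 0 in DNMT3B knockdown, and 1, 1 and 0 in Control. Its ratio to Control was 15.3 in DNMT1 knockdown (3.8 to 134) and 1.32 in DNMT3B knockdown (0.096 to 18.3). Its DNMT1 knockdown libraries lay above all others. MYHAS was named after its values were seen and did not pass the low-count filter, so nothing is read from this. The use of strand in counting is not given in the sources used here, so reads of MYHAS and of the 4 heavy chain genes it crosses cannot be told apart.

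The nearest genes on either side, GAS7 and SCO1, differed from Control by less than 2-fold in both knockdowns. GAS7, an actin-binding adaptor 102 kb beyond MYH13, was at 10.3 ± 0.321 CPM in DNMT1 knockdown, 8.03 ± 0.609 CPM in DNMT3B knockdown and 6.04 ± 0.489 CPM in Control. It rose in both knockdowns (log2 fold change 0.77 ± 0.086, adjusted p = 1.07e-08, in DNMT1 knockdown and 0.42 ± 0.091, adjusted p = 0.000287, in DNMT3B knockdown). SCO1, a copper chaperone of cytochrome oxidase at the other end, fell in both, to 63 ± 1.4 CPM in DNMT1 knockdown and 65 ± 3.46 CPM in DNMT3B knockdown, against 76.6 ± 2 CPM in Control. Within 1 Mb of the cluster the table held 18 genes that are not members, of which 9 passed the low-count filter. In DNMT1 knockdown against Control 3 of the 9 were called (33.3%, 2 higher and 1 lower, beside 41.8% of all genes), and in DNMT3B knockdown 5 of the 9 (55.6%, 3 higher and 2 lower, beside 47.7%). Farther out, and named after their values were seen, the pseudogene MAGOH2P, which lies within the span of TMEM220, rose in DNMT3B knockdown, to 0.911 ± 0.252 CPM against 0.452 ± 0.121 CPM in Control (0.97 ± 0.3, adjusted p = 0.00869), and TMEM220-AS1, which did not pass the filter, had 0 counts in each DNMT1 knockdown library, 3, 3 and 2 in DNMT3B knockdown, and 1, 0 and 1 in Control. Per library size, TMEM220-AS1 was 5.3 times as high in DNMT3B knockdown as in Control, on 10 counts in all. That is above the ratio of MYH13 (4.64) and below that of MYH4 (6.62). TMEM220 itself rose in both knockdowns. Its log2 fold change was 0.52 ± 0.15 (adjusted p = 0.00567) in DNMT1 knockdown and 0.56 ± 0.15 (adjusted p = 0.00236) in DNMT3B knockdown. In DNMT3B knockdown, ratios such as those of the cluster genes were thus not confined to the cluster.

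**Figure D3:**
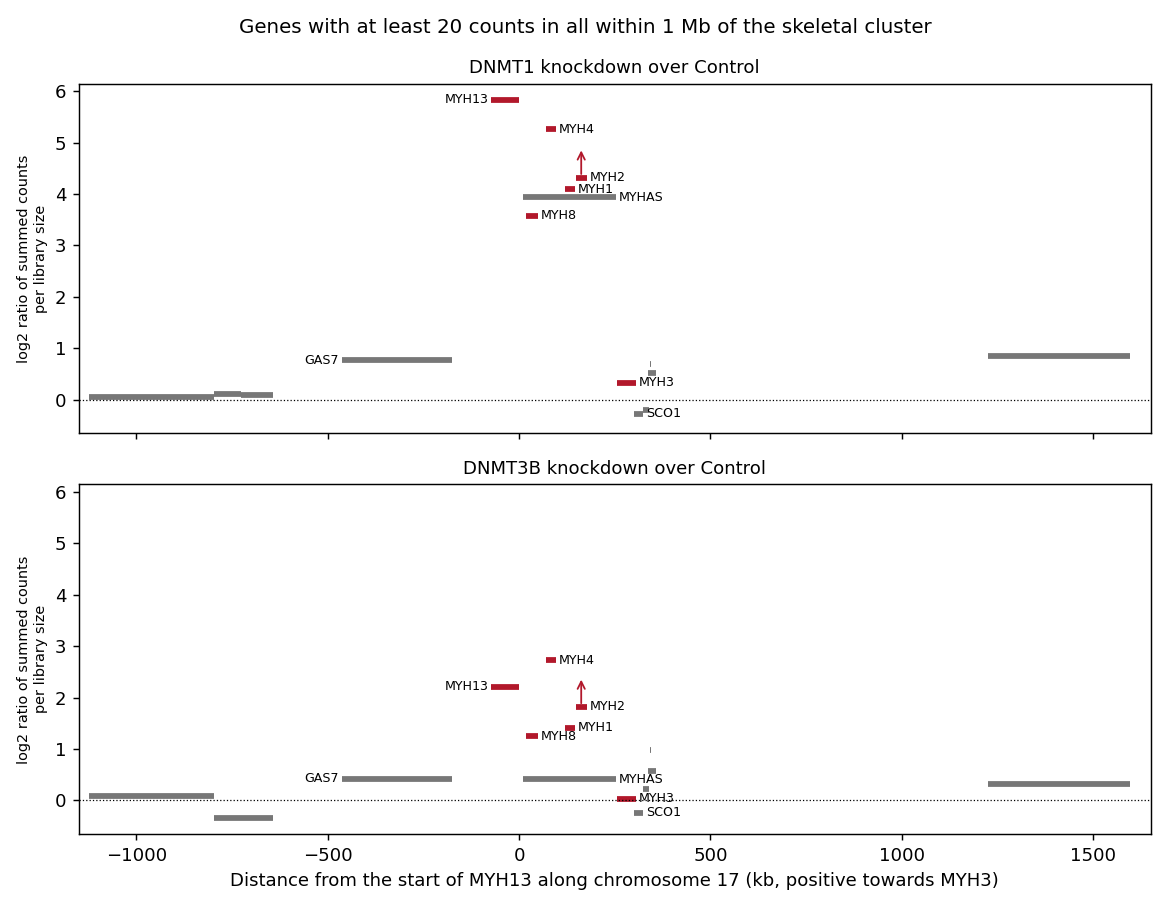
Log2 ratio of summed counts per library size over Control (vertical axis) for genes with at least 20 counts in all, drawn as bars along their span (horizontal axis, kb from the start of MYH13) for DNMT1 knockdown (upper) and DNMT3B knockdown (lower); members are red, other genes grey, and an arrow marks a lower bound. In DNMT1 knockdown MYH13, MYH8, MYH4, MYH1, MYH2 and MYHAS lie between 3.58 and 5.84, whereas GAS7 is at 0.77, MYH3 at 0.33 and SCO1 at -0.28.

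Other genes of skeletal muscle went in both directions. Of 36 sarcomere and myogenic genes, 19 passed the low-count filter, and 7 were called in DNMT1 knockdown against Control (36.8%, 5 higher and 2 lower, beside 41.8% of all genes; median log2 fold change -0.06). In DNMT3B knockdown 10 were called (52.6%, 8 higher and 2 lower, beside 47.7%; median 0.16). TNNI1, the slow muscle troponin I, rose in both (0.74 ± 0.12, adjusted p = 5.61e-06, in DNMT1 knockdown; 0.37 ± 0.12, adjusted p = 0.0147, in DNMT3B knockdown). DES, the muscle intermediate filament, fell in DNMT1 knockdown (-0.94 ± 0.25, adjusted p = 0.00276) and rose in DNMT3B knockdown (1.17 ± 0.18, adjusted p = 1.65e-06). TTN, the giant elastic protein titin, likewise fell in DNMT1 knockdown, to 390.1 ± 1.95 CPM, and rose in DNMT3B knockdown, to 621 ± 22.2 CPM, against 555 ± 31.2 CPM in Control. TNNT1 went the other way, higher in DNMT1 knockdown (0.22 ± 0.04, adjusted p = 4.10e-05) and lower in DNMT3B knockdown (-0.23 ± 0.041, adjusted p = 2.18e-05).

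The factors that start the muscle programme were almost absent. MYOD1 had 0 counts in DNMT1 knockdown, 1 in DNMT3B knockdown and 1 in Control. MYF5 had 1 count in all, in Control, and MYF6 had 0. MYOG, which acts later in differentiation, had 15 counts in DNMT1 knockdown, 7 in DNMT3B knockdown and 8 in Control, too few to pass the filter. The summed level of 8 skeletal muscle markers was 3.88 to 4.57 CPM in DNMT1 knockdown and 5.06 to 6.22 CPM in DNMT3B knockdown. In Control it was 4.25 to 4.53 CPM. The fast troponin TNNT3 was at 0 in all libraries. This sum did not follow the order of the heavy chains, but DES weighed heavily in it. DES had a mean of 0.584 CPM in DNMT1 knockdown, 2.54 CPM in DNMT3B knockdown and 1.14 CPM in Control. The single markers had no common order. MYOG, at 0.208, 0.111 and 0.0909 CPM in the same groups, did follow that of the heavy chains. Of the muscle light chains that did not pass the filter, MYL1 and MYL3 were at 0 throughout, MYL2 had 12 counts in DNMT1 knockdown, 16 in DNMT3B knockdown and 2 in Control, and MYL4 had 7 in DNMT1 knockdown, 3 in DNMT3B knockdown and 1 in Control. MEF2C, a partner of the myogenic factors that other cells use as well, rose in both knockdowns (0.29 ± 0.045 in DNMT1 knockdown, adjusted p = 3.45e-06, and 0.25 ± 0.045 in DNMT3B knockdown, adjusted p = 2.61e-05). SIX4, also on the list of myogenic factors, fell in DNMT3B knockdown (-0.56 ± 0.039, adjusted p = 2.40e-13). In DNMT1 knockdown it was not called (-0.06 ± 0.037, adjusted p = 0.205).

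The nonmuscle genes were abundant in every library and differed little between groups. MYH9, the main chain, had 1281, 1355 and 1327 CPM in DNMT1 knockdown, 1484, 1495 and 1411 CPM in DNMT3B knockdown, and 1313, 1367 and 1313 CPM in Control. All DNMT3B knockdown libraries lay above all others, and the DNMT1 knockdown and Control libraries overlapped. Of the tested genes, 26.6% had every DNMT3B knockdown library above every Control library. MYH9 rose in DNMT3B knockdown against Control (log2 fold change 0.14 ± 0.034, adjusted p = 0.00129), and in DNMT1 knockdown it differed by -0.01 ± 0.034 (adjusted p = 0.829). It was lower in DNMT1 than in DNMT3B knockdown (-0.15 ± 0.034, adjusted p = 0.000664).

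MYH10, whose myosin IIB is a slow, tension-holding form, had 154, 151 and 149.7 CPM in DNMT1 knockdown, 136, 136 and 137 CPM in DNMT3B knockdown, and 144, 147 and 140.2 CPM in Control. The 3 groups did not overlap. Of the tested genes, 24.8% had every DNMT1 knockdown library above every Control library. The share with every DNMT3B knockdown library below every Control library was not counted. Neither knockdown passed the test of MYH10 against Control (0.08 ± 0.033, adjusted p = 0.0639, in DNMT1 knockdown and -0.08 ± 0.034, adjusted p = 0.0574, in DNMT3B knockdown). Between the knockdowns it was higher in DNMT1 knockdown (0.15 ± 0.034, adjusted p = 0.000383). Over the table, 45.2% of genes were called in that comparison, 24.3% higher and 20.9% lower in DNMT1 knockdown. The call against Control depended on the processing: with scaling by library size only DNMT1 knockdown passed (adjusted p = 0.0419), with a filter of 1 CPM in 3 libraries it passed too (adjusted p = 0.04), and without Control replicate 3 DNMT3B knockdown passed (adjusted p = 0.0462).

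MYH14, whose myosin IIC is found mainly in epithelia, was the nonmuscle gene that rose in DNMT1 knockdown. It had 159, 176 and 175 CPM in DNMT1 knockdown, 157, 153 and 151 CPM in DNMT3B knockdown, and 138, 149.9 and 150.3 CPM in Control. The groups did not overlap, with DNMT1 knockdown highest, but the gaps were narrow (159 against 157 CPM, and 151 against 150.3 CPM). Of the tested genes, 24.8% had every DNMT1 knockdown library above every Control library, and 26.6% every DNMT3B knockdown library. The log2 fold change of MYH14 against Control was 0.22 ± 0.039 in DNMT1 knockdown (adjusted p = 4.14e-05). In DNMT3B knockdown it was 0.07 ± 0.039 (adjusted p = 0.123). DNMT1 knockdown was above DNMT3B knockdown by 0.14 ± 0.04 (adjusted p = 0.00405). Thus 1 of the 3 nonmuscle genes was called in DNMT1 knockdown against Control (MYH14), beside 41.8% of all genes, and 1 in DNMT3B knockdown against Control (MYH9), beside 47.7%. All 3 were called between the knockdowns, beside 45.2%.

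**Figure D4:**
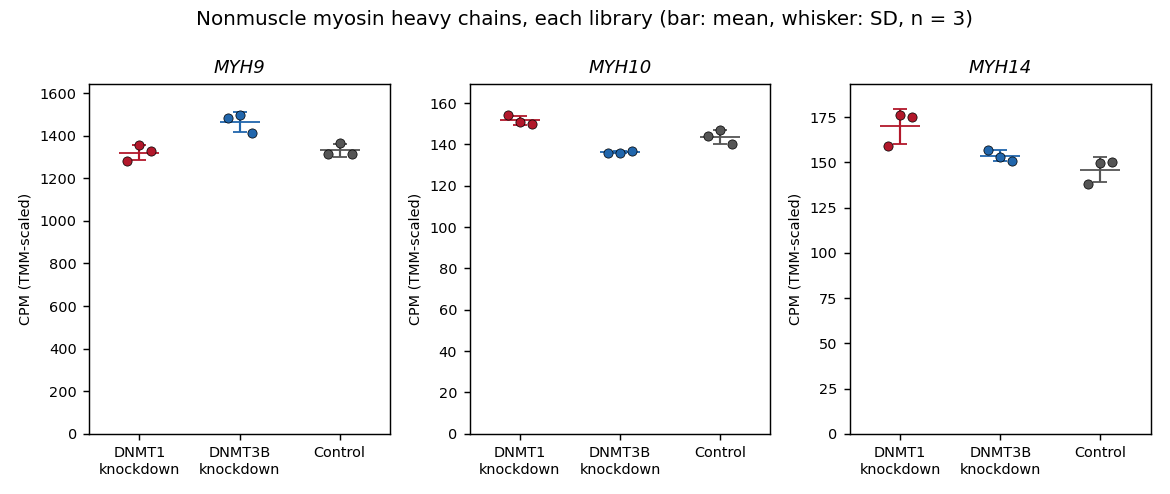
Level of the 3 nonmuscle heavy chain genes in every library (vertical axis, CPM from 0, a scale of its own per gene) in DNMT1 knockdown, DNMT3B knockdown and Control cells; points are libraries, the bar is the mean and the whisker the SD (n = 3). MYH9 is highest in DNMT3B knockdown (1411 to 1495 CPM), and MYH10 and MYH14 are highest in DNMT1 knockdown.

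The make-up of the nonmuscle pool shifted by a few percentage points. MYH9 supplied 80.4 ± 0.112% of the nonmuscle counts in DNMT1 knockdown, 83.4 ± 0.375% in DNMT3B knockdown and 82.1 ± 0.198% in Control (SD, n = 3 each). The per-library shares did not overlap between any 2 groups. MYH10 supplied 9.25 ± 0.379% in DNMT1 knockdown, 7.78 ± 0.241% in DNMT3B knockdown and 8.88 ± 0.157% in Control. MYH14 supplied 10.3 ± 0.325% in DNMT1 knockdown, 8.78 ± 0.168% in DNMT3B knockdown and 9.02 ± 0.349% in Control. These shares are of counts, not of molecules, since the transcripts differ in length.

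Per kb of exon, the order of levels was MYH9, MYH10, MYH14, MYH3 and then MYH13 in all 3 groups. MYH9 was at 147 ± 4.17 CPM per kb in DNMT1 knockdown, 162 ± 5.09 in DNMT3B knockdown and 148 ± 3.44 in Control. MYH10 and MYH14 were neighbours in this order: MYH10 was at 16.8 ± 0.263 CPM per kb in DNMT1 knockdown, 15.1 ± 0.0656 in DNMT3B knockdown and 16 ± 0.394 in Control, and MYH14 was at 16.3 ± 0.917 in DNMT1 knockdown, 14.8 ± 0.274 in DNMT3B knockdown and 14.1 ± 0.65 in Control. In DNMT1 knockdown they differed by less than the SD of MYH14, and per kb of coding length MYH14 stood above MYH10 in both knockdowns. MYH3 was at 0.699 ± 0.0755 CPM per kb in DNMT1 knockdown and MYH13 at 0.616 ± 0.101, also within their spread, whereas in Control MYH3 was at 0.555 ± 0.0224 and MYH13 at 0.0104 ± 0.00427. MYH4, MYH8, MYH2 and MYH1 followed at 0.139 ± 0.022, 0.108 ± 0.0135, 0.0987 ± 0.0189 and 0.0928 ± 0.0405 CPM per kb in DNMT1 knockdown. MYH8, MYH2 and MYH1 did not differ from each other beyond their spread there. In DNMT3B knockdown these 4 genes were between 0.0153 and 0.0234 CPM per kb, and in Control between 0 and 0.00958, the worth of single counts. Even in DNMT1 knockdown the 6 skeletal genes together made up 0.674 ± 0.0383% of the counts of the 9 members, against 0.259 ± 0.0229% in DNMT3B knockdown and 0.239 ± 0.00882% in Control.

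Of the 6 other class II heavy chain genes, 4 passed the low-count filter. MYH15, a slow tonic type outside the cluster, fell in both knockdowns, to 48.4 ± 0.513 CPM in DNMT1 knockdown and 48.6 ± 2.87 CPM in DNMT3B knockdown, against 68.6 ± 3.19 CPM in Control (log2 fold change -0.50 in DNMT1 knockdown, adjusted p = 7.49e-11, and -0.50 in DNMT3B knockdown, adjusted p = 7.31e-11). MYH16, which human jaw muscle no longer uses, rose in DNMT3B knockdown (0.64 ± 0.16, adjusted p = 0.00174) and stood at 0.25 ± 0.17 in DNMT1 knockdown (adjusted p = 0.255). MYH11 of smooth muscle and MYH7B were not called in either. The cardiac genes MYH6 and MYH7 had 2 and 8 counts over all 9 libraries.

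Nonmuscle myosin works with light chains, kinases and actin partners, and these differed in both directions. Of 44 such genes 42 passed the filter. In DNMT1 knockdown against Control 23 were called (54.8%, 10 higher and 13 lower, beside 41.8% of all genes; median log2 fold change -0.02), and in DNMT3B knockdown 28 (66.7%, 16 higher and 12 lower, beside 47.7%; median 0.05). Among light chains, the regulatory chain MYL9 rose in both knockdowns, to 42.4 ± 2.09 CPM in DNMT1 knockdown and 38.6 ± 1.2 CPM in DNMT3B knockdown, against 33.3 ± 1.12 CPM in Control. The essential chain MYL6 and the regulatory chain MYL12B fell in both (MYL6 log2 fold change -0.27 in DNMT1 knockdown and -0.22 in DNMT3B knockdown; MYL12B -0.26 in DNMT1 knockdown and -0.16 in DNMT3B knockdown). MYLK, the kinase that activates the regulatory chain, rose in both (0.41 ± 0.064, adjusted p = 4.83e-06, in DNMT1 knockdown; 0.25 ± 0.066, adjusted p = 0.00214, in DNMT3B knockdown). In DNMT3B knockdown CIT rose (0.26 ± 0.037, adjusted p = 6.05e-07) and CDC42BPB fell (-0.19 ± 0.033, adjusted p = 1.29e-05). Neither CIT nor CDC42BPB was called in DNMT1 knockdown.

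S100A4, which binds the MYH9 tail and takes its filaments apart, had the largest change of the 42 partner genes in DNMT1 knockdown, at 17.4 ± 1.09 CPM there, 3 ± 0.694 CPM in DNMT3B knockdown and 4.31 ± 0.638 CPM in Control. It rose in DNMT1 knockdown (2.00 ± 0.096, adjusted p = 1.89e-17) and fell in DNMT3B knockdown (-0.55 ± 0.14, adjusted p = 0.00189). SVIL, a membrane-associated protein that binds myosin and actin, rose in both (0.55 ± 0.045 in DNMT1 knockdown and 0.28 ± 0.046 in DNMT3B knockdown). ANLN, the ring scaffold of dividing cells, rose in DNMT3B knockdown (0.32 ± 0.035, adjusted p = 4.08e-09) and was slightly lower in DNMT1 knockdown (-0.09 ± 0.035, adjusted p = 0.0444), and ACTB, cytoplasmic beta-actin, rose in DNMT3B knockdown (0.18 ± 0.036, adjusted p = 0.000116).

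Of the myosin chaperones, UNC45A, which folds the nonmuscle motor head, fell in DNMT3B knockdown (-0.40 ± 0.041, adjusted p = 1.03e-09) and less in DNMT1 knockdown (-0.11 ± 0.04, adjusted p = 0.0237). The difference between the knockdowns was 0.29 ± 0.042. The muscle chaperone UNC45B had 8 counts and SMYD1, a muscle methyltransferase, 4 counts over all libraries. SRF, which with its MRTF partners drives actin and myosin genes, fell in DNMT1 knockdown (-0.23 ± 0.036, adjusted p = 4.83e-06), and MRTFB rose there (0.19 ± 0.037, adjusted p = 0.000119). In DNMT3B knockdown SRF was at 0.03 ± 0.036 and MRTFB at -0.02 ± 0.037 against Control, neither called.

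**Figure D5:**
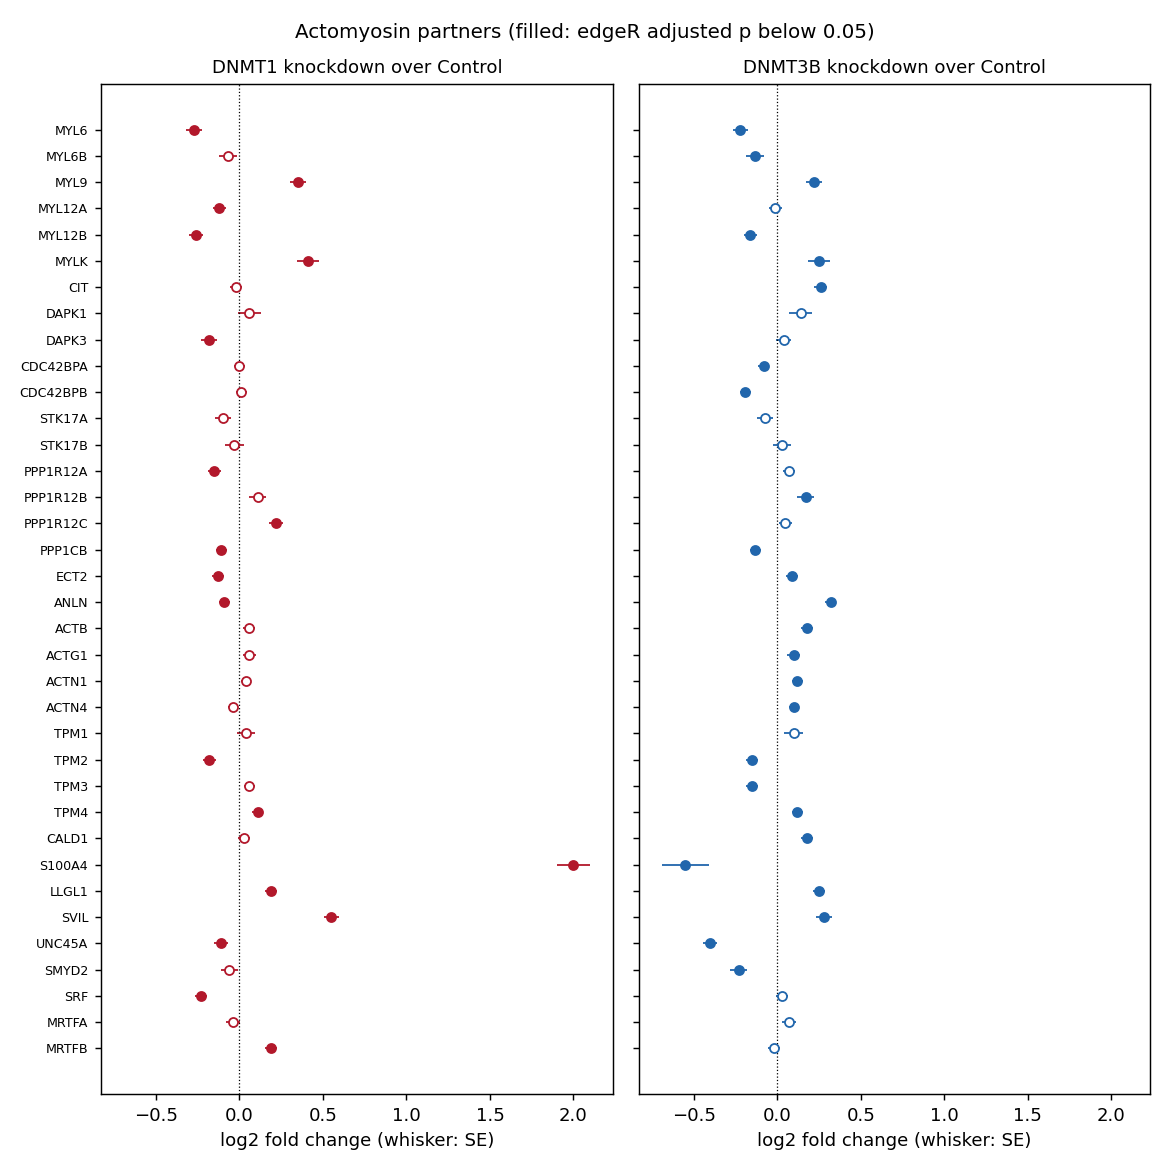
Log2 fold change against Control (horizontal axis, the same in both panels; whiskers are SE) of actomyosin partner genes that passed the low-count filter, for DNMT1 knockdown (left) and DNMT3B knockdown (right); filled points passed edgeR at an adjusted p below 0.05. S100A4 at 2.00 in DNMT1 knockdown lies far to the right, and the genes shown differ in both directions in both panels.

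The tested genes whose log2 CPM (prior count 2) ran most like a member over the 9 libraries were found by Pearson's r, given as a description, since the libraries fall into 3 groups. For MYH13 they were MARCKS, NRBP1 and TMEM63A (r = 0.992 each), at levels far above MYH13: MARCKS was at 56.8 ± 1.47 CPM in DNMT1 knockdown, 36.2 ± 1.09 in DNMT3B knockdown and 29.7 ± 0.688 in Control. For MYH9 they were LINC01270 (0.971), VLDLR (0.969) and HELB (0.962), each highest in DNMT3B knockdown. For MYH10 they were MDH1B (0.981), TASOR (0.98) and PTAR1 (0.978), each lowest in DNMT3B knockdown. For MYH14 they were SLC29A3 (0.974), IER2 (0.968) and MARCKSL1 (0.965), each highest in DNMT1 knockdown. No gene was shared among the 4 sets.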

How the data were processed

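Total RNA of HT29 cells was sequenced after rRNA depletion in 9 libraries, 3 per group. The authors deposited raw read counts per gene symbol. STAR, featureCounts and DESeq2 with GRCh38 (hg38) are named per the submitters' processing notes; versions, the annotation, the strand setting and how reads with several matches were treated: not given in the sources used here. Groups came from the sample labels, and 0 columns lacked a sample.

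The counts were fitted with edgeR 4.0.16 in R 4.3.3: filterByExpr by group (16660 of 25886 genes), TMM scaling and the quasi-likelihood test over all 9 libraries, with Benjamini-Hochberg adjustment over all tested genes and calls at an adjusted p below 0.05. Every adjusted p is from this fit unless another tool, scaling, filter, block or set of libraries is named. Ratios of near-silent genes are summed counts per effective library size, with exact 95% conditional binomial intervals and a floor of 3 counts. Intervals and floors cover counting error only, and a floor covers it only for the group with 0 counts. Transcripts were aligned with mafft 7.526, and promoter sequences are RefSeq's. Alternatives were DESeq2 1.42.0, limma-voom (limma 3.58.1), other scalings and filters, fits of 2 groups, the replicate block and leaving out each library. The fit was tested on simulated data.

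The members and lists were chosen with earlier results of these data known. Besides the members, the plan was to name the called list members with the smallest adjusted p (up to 4 per list and comparison). Some of these were left out, so the genes named do not stand for their lists. Also named were genes needed to account for a list, the nearest neighbours of the cluster, and the 3 genes most correlated with MYH13, MYH9, MYH10 and MYH14. MYHAS, ACTB, MAGOH2P and TMEM220-AS1 were added after their values were seen. Some of the partner genes are not reported here.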

Additional observations from a re-analysis of the deposited data

How the results depend on the processing

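Of the alternatives compared with the values given, 500 were taken as the same, 8 lost a call, 3 gained one, 6 moved and 5 turned round. The same means that direction and side of the threshold were kept, or that the value stayed within the spread. Counts of called list genes fell under a looser rule: 18 called actomyosin partners in DNMT1 knockdown against Control, without Control replicate 1, were taken as the same as 23. DESeq2 gave MYH3 log2 fold changes of 0.33 (DNMT1 knockdown against Control) and 0.30 (against DNMT3B knockdown), neither called, and a fit of the 2 groups alone gave 0.29 for DNMT1 against DNMT3B knockdown, not called. MYH10 in DNMT1 knockdown against Control became called at 0.09 with library size only and at 0.08 with at least 1 CPM in 3 libraries. With no low-count filter, in a fit that tested more genes, 5 neighbours of the cluster were called between the knockdowns, in place of 3. Per kb of coding length in place of exon length, the log2 ratio of MYH10 to MYH14 was -0.14 in DNMT1 knockdown, -0.15 in DNMT3B knockdown and 0.00 in Control.

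With each library left out in turn, MYH3 ranged from 0.24 to 0.39 (DNMT1 knockdown against Control), from -0.05 to 0.07 (DNMT3B knockdown against Control, negative without DNMT3B knockdown replicate 3) and from 0.21 to 0.38 (between the knockdowns). MYH9 in DNMT1 knockdown against Control ranged from -0.03 to 0.01, with 0.01 without Control replicate 2 and without DNMT1 knockdown replicate 1. MYH10 in DNMT3B knockdown against Control ranged from -0.09 to -0.06, the log2 bound of MYH2 in DNMT1 knockdown from 3.66 to 4.47, and the called neighbours in DNMT1 knockdown from 3 to 5, with 5 without DNMT1 knockdown replicate 2. MYH13 ranged from 5.61 to 6.18 (DNMT1 knockdown against Control) and from 1.91 to 2.55 (DNMT3B knockdown against Control). The cause of these shifts was not tested.

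The labels give replicate numbers 1 to 3 in each group but do not say what they share. Deviations of same-numbered DNMT1 knockdown and Control libraries correlated at 0.254, -0.0704 and -0.0432, and not every pair passed 0.1, so the numbers were not taken as pairs. Differently numbered libraries of these groups correlated from -0.179 to 0.229. DNMT1 knockdown replicates 1, 2 and 3 correlated with Control replicates 1, 3 and 2 at 0.254, 0.229 and 0.157, all above 0.1. That matching was picked after the values were seen, and pairs under another numbering were not tested in a fit. The block below covers only the numbers as labelled. With the replicate number as a block no call of a tested member changed: MYH3 stayed at 0.33 in DNMT1 knockdown against Control (adjusted p = 0.0249), and the called actomyosin partners numbered 23, 27 and 25 in DNMT1 knockdown against Control, DNMT3B knockdown against Control and DNMT1 against DNMT3B knockdown, in place of 23, 28 and 28. Depth limits the near-silent genes most: a Control library with 0 counts allows 0.0895 to 0.112 CPM.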
